A study of Mus musculus with 6 samples.

Results

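The endothelial identity genes described here are 10 genes that mark the cells lining blood vessels: Pecam1, Cdh5, Cldn5, Emcn, Esam, Vwf, Erg, Sox17, Sox18 and Plvap. They were chosen by name, with earlier results of these data known, and each had 1 row among the 17572 genes of the table. Bulk RNA sequencing measured 6 skin libraries of wild-type C57BL/6 mice at week 2 after surgery. In the 3 libraries of hypertrophic scars (HS), the wound edges of the upper back had been pulled under tension and stitched to the rib cage. In the 3 libraries of normal scars (NS), the wound of the lower back had been closed where it lay, without tension. Because the HS and NS wounds differed in their position on the back as well as in tension, the effects of these cannot be told apart. Nothing in the labels ties each library to its own animal. All p-values therefore rest on the spread between libraries, part or all of which may be technical.

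Endothelial cells are held together by adherens junctions, built on VE-cadherin, and by tight junctions, built on claudins and on adhesion molecules of the immunoglobulin family. ETS factors such as ERG and SOX factors of the F group keep these cells endothelial and drive many of the genes that mark them. During skin repair new vessels sprout into the wound bed and later regress, and thickened scars are often described as rich in small vessels.

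Of the 10 genes, 6 rose in HS, none fell and 4 were not called. Those that rose were Pecam1, Cdh5, Cldn5, Emcn, Vwf and Erg, by 2.15-fold to 2.96-fold. Sox17, Sox18, Plvap and Esam did not pass the test, although their fitted differences were also positive. Among all 14513 genes tested, 8.85% were called, 6.33% as higher in HS and 2.51% as lower. For 7 of the 10 genes every HS library was above every NS library, as it was for 17.2% of all genes tested (32.3% when either direction counts). The median log2 fold change of the 10 genes was 1.16, beside -0.01 for all genes tested. HS was tested against NS by the quasi-likelihood test of edgeR, with Benjamini-Hochberg adjustment over all genes tested and a threshold of 0.05. The number of the 10 genes called was 8 when HS replicate 2 was left out, 1 when HS replicate 3 was, and 0 when any 1 of the NS replicates was, where 6 to 8 of them had an unadjusted p below 0.05. Calls over all genes moved in the same direction, from 1284 to 3257 without HS replicate 2, to 148 without HS replicate 3 and to 94, 25 and 48 without NS replicates 1, 2 and 3. In bulk tissue, more endothelial cells and more RNA per cell cannot be told apart.

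Library totals ran from 20375395 to 27859889 counts, so that 1 count was worth 0.0366 to 0.048 CPM (counts scaled to a common library total, with TMM correcting for differences in library composition). The libraries were not equally alike. HS replicate 2 was the lowest of the HS libraries for 9 of the 10 genes, Esam being the exception. HS replicate 1 was the highest for 8 of the 10. Averaged over the genes, HS replicate 1 was 1.37 above the NS mean on the log2 scale, replicate 2 was 0.81 above and replicate 3 was 1.26 above. Esam, with very few counts, entered these averages equally. Its difference in HS replicate 2 was 1.84, the largest of the 10 genes there, followed by Emcn at 1.14.

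**Figure D1:**
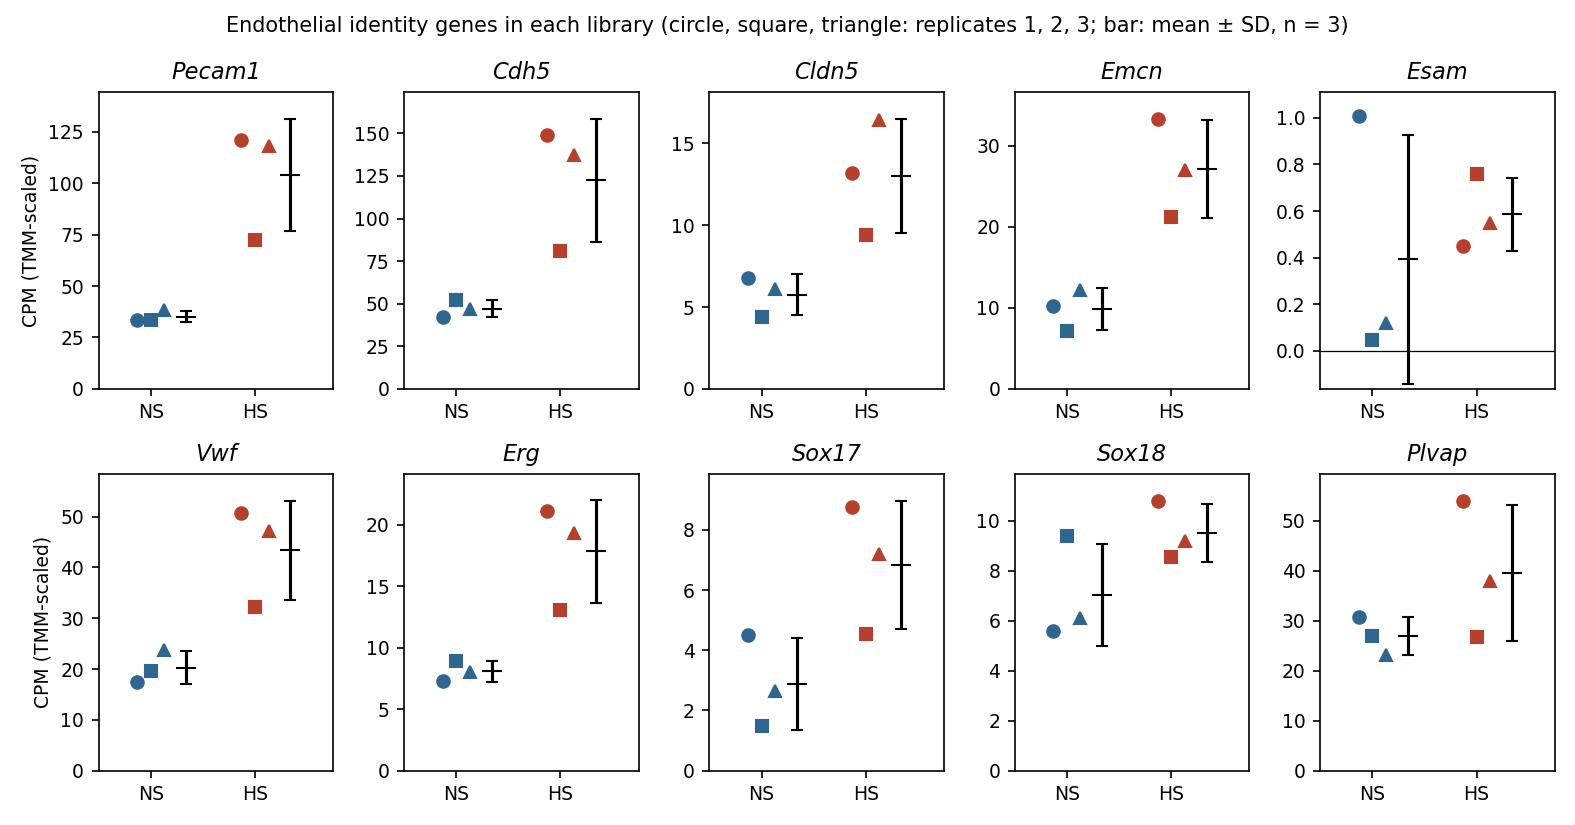
CPM of each of the 10 genes in the 3 NS libraries (blue) and the 3 HS libraries (red), with replicates 1, 2 and 3 as circle, square and triangle and the mean ± SD (n = 3) as a bar; each panel has its own linear axis. The HS and NS libraries do not overlap for 7 genes, and they overlap for Esam, Sox18 and Plvap.

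Among the junction genes, Pecam1 had the smallest p of the 10. Pecam1 (ENSMUSG00000020717, chromosome 11, 106654217 to 106750628, minus strand) encodes CD31, an adhesion molecule of the endothelial cell border that leukocytes and platelets also carry. Its level, taking replicates 1, 2 and 3 in order here and throughout, was 121, 72.5 and 118 CPM in HS and 33.5, 33.5 and 38.3 CPM in NS. The NS libraries lay close together, and the lowest HS library stood 1.89-fold above the highest NS library. The log2 fold change was 1.56 ± 0.192 (SE, n = 3 a group, edgeR adjusted p = 0.008279).

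Cdh5 (ENSMUSG00000031871, chromosome 8, 104101625 to 104144511, plus strand) encodes VE-cadherin, the cadherin of endothelial adherens junctions. It stood at 149, 81.0 and 137 CPM in the HS libraries and at 42.2, 52.2 and 46.7 CPM in the NS libraries. All HS libraries were above all NS libraries, with HS replicate 2 nearest to them. The rise was 2.61-fold (log2 fold change 1.38 ± 0.224, SE, edgeR adjusted p = 0.01783).

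Cldn5 (ENSMUSG00000041378, chromosome 16, 18776847 to 18778262, plus strand) encodes claudin-5, the main claudin of endothelial tight junctions, and has a single exon in the annotation. It measured 13.2, 9.40 and 16.4 CPM in HS and 6.78, 4.37 and 6.12 CPM in NS. Here HS replicate 3, not replicate 1, was the highest. The groups did not overlap, and the rise was 2.26-fold (log2 fold change 1.17 ± 0.260, SE, edgeR adjusted p = 0.02934).

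Esam (ENSMUSG00000001946, chromosome 9, 37528078 to 37538319, plus strand), an immunoglobulin-family adhesion molecule of endothelial tight junctions that platelets carry as well, was barely counted. Its row held 12, 17 and 15 counts in the HS libraries, beside 23, 1 and 3 in the NS libraries. NS replicate 1 alone was above every HS library, and the other NS libraries were below every HS library. The fitted log2 fold change was 0.57 ± 0.946 (SE, edgeR adjusted p = 0.7506), and it was 2.68 without NS replicate 1 and 0.06 without NS replicate 2. With counts this low and a 20.9-fold spread between the NS libraries, the fit could not settle a difference in either direction. Per kilobase of exon, Esam reached 0.204 ± 0.0545 CPM in HS (SD, n = 3) where Cdh5 reached 29.1 ± 8.67 CPM. No exon of another annotated gene overlaps those of Esam. Tjp1, which encodes the widely expressed junction protein ZO-1 and was picked after its values were seen, was also listed low, with a mean of 0.453 ± 0.221 CPM in HS against 0.597 ± 0.278 CPM in NS (SD, n = 3). How the authors' counting treated these 2 genes was not tested.

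Of the surface genes, Emcn was called and Plvap was not, and their fold changes were not tested against each other. Emcn (ENSMUSG00000054690, chromosome 3, 137341067 to 137432185, plus strand) encodes endomucin, a mucin of capillary and venous endothelium that lowers leukocyte adhesion. It stood at 33.3, 21.2 and 27.0 CPM in HS and at 10.2, 7.11 and 12.2 CPM in NS. The groups were well apart, with a rise of 2.76-fold (log2 fold change 1.47 ± 0.235, SE, edgeR adjusted p = 0.01309).

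Plvap (ENSMUSG00000034845, chromosome 8, 71497765 to 71511752, minus strand) encodes PV-1, the protein of the diaphragms that span endothelial fenestrae and caveolae. It measured 54.0, 26.8 and 37.9 CPM in HS and 30.7, 27.0 and 23.2 CPM in NS. HS replicate 2 lay below NS replicates 1 and 2, so the groups overlapped. The log2 fold change was 0.55 ± 0.243 (SE, edgeR adjusted p = 0.1933). Without HS replicate 2 it was 0.77 and passed (adjusted p = 0.00752), and without HS replicate 1 it was 0.26.

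Vwf (ENSMUSG00000001930, chromosome 6, 125546774 to 125686679, plus strand) encodes von Willebrand factor, which endothelial cells store in Weibel-Palade bodies and release to catch platelets, and which megakaryocytes also make. Its level was 50.7, 32.3 and 47.2 CPM in HS and 17.4, 19.6 and 23.8 CPM in NS. Every HS library was higher than every NS library. The rise was 2.15-fold (log2 fold change 1.10 ± 0.190, SE, edgeR adjusted p = 0.01577).

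The 3 transcription factors did not behave alike in the test. Erg (ENSMUSG00000040732, chromosome 16, 95359169 to 95586593, minus strand) encodes the ETS factor that activates Cdh5 and other junction genes. It stood at 21.1, 13.1 and 19.3 CPM in HS and at 7.26, 8.93 and 8.04 CPM in NS. The HS libraries were all above the NS libraries, and the rise was 2.21-fold (log2 fold change 1.14 ± 0.211, SE, edgeR adjusted p = 0.01783).

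Sox17 (ENSMUSG00000025902, chromosome 1, 4490931 to 4497354, minus strand), a SOX factor of the F group active in arterial endothelium, measured 8.76, 4.54 and 7.21 CPM in HS and 4.50, 1.49 and 2.64 CPM in NS. HS replicate 2 and NS replicate 1 were almost level, the first 1.01-fold above the second. The log2 fold change was 1.25 ± 0.414 (SE, edgeR adjusted p = 0.09298), and it passed with DESeq2 (adjusted p = 0.0271) and without HS replicate 2 (adjusted p = 0.0200). Exons of Sox17 share 804 bases with those of Gm37587, a transcript on the other strand, and no source used here says whether reads were counted by strand.

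Sox18 (ENSMUSG00000046470, chromosome 2, 181669836 to 181671640, minus strand) belongs to the same group and is needed in mouse for the start of lymphatic development. It stood at 10.8, 8.56 and 9.19 CPM in HS and at 5.60, 9.37 and 6.12 CPM in NS. NS replicate 2 was above HS replicates 2 and 3, so the groups overlapped. The log2 fold change was 0.44 ± 0.243 (SE, edgeR adjusted p = 0.2865), and none of 14 alternative settings called it.

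The proximal promoters of members that rose are shown because Erg is itself a factor that reads such sequence. Of the 10 genes, 3 had a promoter window in RefSeq's table (build GRCm38.p6): Cldn5, Emcn and Erg, which has 3 annotated starts. The lines give the 250 bases before the start, on the gene's strand, for Cldn5 at chr16:18776597-18776846 (plus), Emcn at chr3:137340828-137341077 (plus) and the Erg start with the most matches at chr16:95459349-95459598 (minus). Capitals mark matches to AGGAAG or CGGAAG, taken as the ETS motif, and to ACAAT, taken as the SOX motif, each on either strand. Shorter or other forms of these motifs were not searched and are not marked.
Cldn5: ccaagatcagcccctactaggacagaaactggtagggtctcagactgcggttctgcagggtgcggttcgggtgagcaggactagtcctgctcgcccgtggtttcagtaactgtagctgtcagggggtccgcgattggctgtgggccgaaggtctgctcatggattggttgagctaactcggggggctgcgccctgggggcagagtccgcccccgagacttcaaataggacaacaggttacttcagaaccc
Emcn: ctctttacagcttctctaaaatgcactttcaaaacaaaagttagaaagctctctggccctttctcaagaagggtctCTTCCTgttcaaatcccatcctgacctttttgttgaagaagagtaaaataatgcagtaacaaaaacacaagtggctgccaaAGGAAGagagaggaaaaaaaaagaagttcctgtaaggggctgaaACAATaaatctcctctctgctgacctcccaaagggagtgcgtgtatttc
Erg: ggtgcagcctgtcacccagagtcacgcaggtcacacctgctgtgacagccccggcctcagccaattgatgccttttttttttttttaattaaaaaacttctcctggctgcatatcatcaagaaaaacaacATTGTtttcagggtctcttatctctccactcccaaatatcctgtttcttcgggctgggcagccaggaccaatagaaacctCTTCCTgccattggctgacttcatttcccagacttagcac

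The Emcn window held 2 ETS matches, 174 to 169 and 93 to 88 bases before the start, and 1 SOX match 49 to 45 bases before it. The Erg window held 1 ETS match, 40 to 35 bases before its start, and 1 SOX match 120 to 116 bases before it. Neither motif was in the Cldn5 window or in the windows of the other 2 Erg starts. Of 32851 such windows in the table, 39.2% held an ETS match, 27.7% a SOX match and 9.43% both. A match describes the letters only.

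Levels of different genes were compared as CPM per kilobase of annotated exon. In HS, Cdh5 was highest (29.1 ± 8.67, SD, n = 3), followed by Plvap (19.9 ± 6.90) and Pecam1 (16.7 ± 4.37), and the ranges of neighbours among these overlapped. Cldn5, Sox18, Erg and Emcn followed between 9.18 and 5.02, each overlapping the next. Vwf (2.70), Sox17 (1.43) and Esam (0.204) were lowest, with no overlap between neighbours. In NS, Plvap was first (13.6 ± 1.91) and Cdh5 second (11.2 ± 1.19), with overlapping ranges, and Pecam1 came next (5.64 ± 0.450), clear of Cdh5. Plvap and Cdh5 thus changed places in the order of means, though their ranges overlapped in each group.

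Other endothelial genes, from a list chosen with earlier results of these data known, rose as well. Of 16 further genes of endothelial surface and signalling, 11 rose, none fell and 5 were not called, with a median log2 fold change of 1.13. Kdr, the main VEGF receptor, stood at 64.6 ± 14.5 CPM in HS against 29.4 ± 1.26 CPM in NS (SD, n = 3 a group), with an edgeR adjusted p of 0.009944. Flt1, the VEGF receptor that also acts as a decoy, stood at 42.5 ± 8.49 against 21.3 ± 0.661 CPM, with an adjusted p of 0.01244. The fold changes of the 16 genes ran from 0.69 to 1.94 on the log2 scale. Plvap, Sox18 and Esam lay below that range, and the other 7 genes within it.

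**Figure D2:**
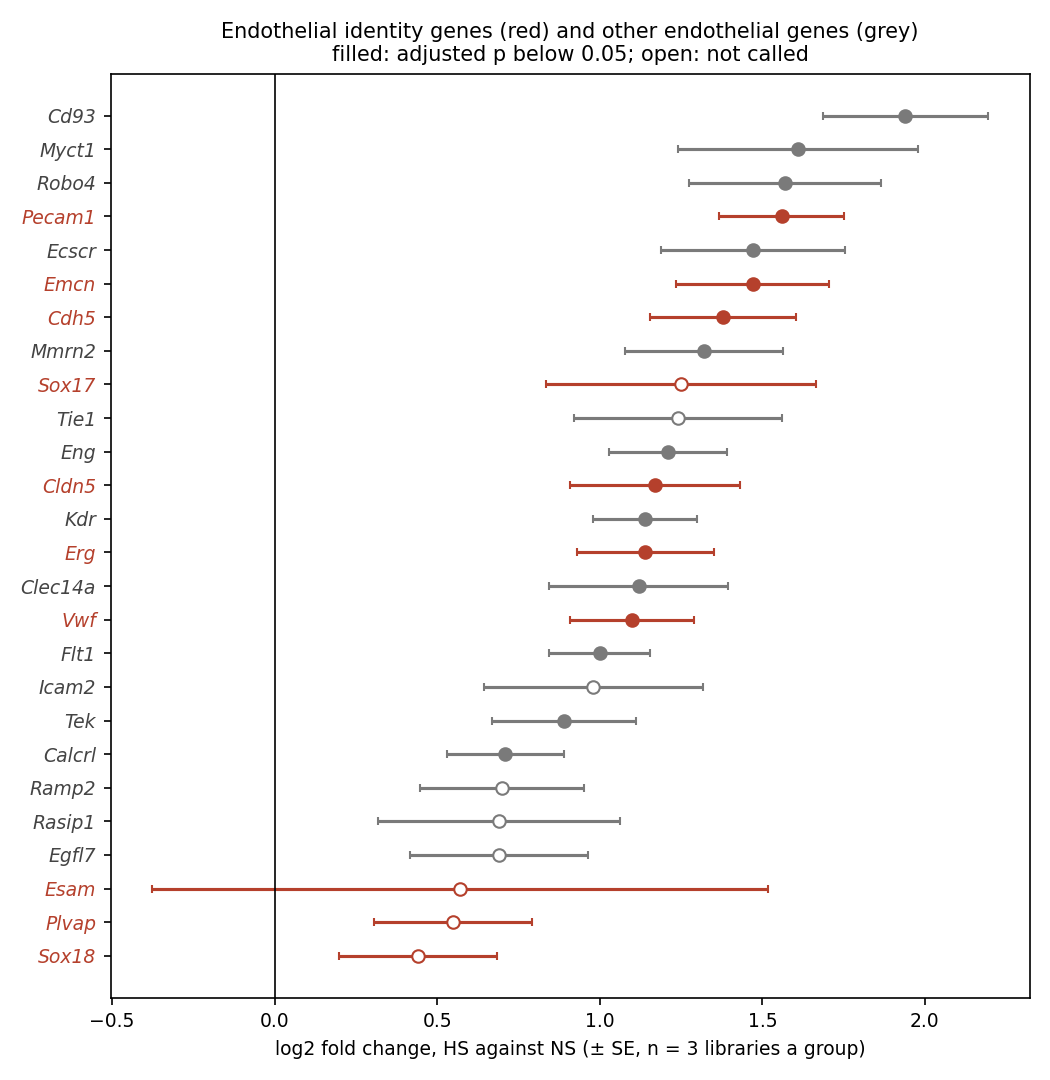
Log2 fold change of HS against NS (± SE) for the 10 endothelial identity genes (red) and 16 other endothelial genes (grey), filled where the adjusted p was below 0.05. Pecam1, Emcn and Cdh5 have the highest values of the red genes, and Esam, Plvap and Sox18 the lowest, between 0.44 and 0.57.

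The 16 genes served as a reference level in each library. Whether they follow the amount of endothelial RNA was not tested. Their mean log2 CPM was 5.03, 4.24 and 4.91 in HS, against 3.72, 3.63 and 3.46 in NS, a difference of 1.12. Each gene was then expressed as a log2 ratio to that mean. The exact two-sided permutation test over 3 against 3 libraries cannot go below p = 0.1, so no ratio could pass 0.05.

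Relative to this reference, 3 of the 10 genes had groups that did not overlap, beside 80.9% of all 14513 tested genes, on a scale where a gene with equal CPM in both groups lies 1.12 lower in HS. Plvap had log2 ratios of 0.72, 0.50 and 0.34 in HS and 1.23, 1.13 and 1.08 in NS, so every HS library lay below every NS library (difference -0.62, exact permutation p = 0.1). Pecam1 had 1.89, 1.94 and 1.97 in HS and 1.35, 1.44 and 1.80 in NS, with every HS library above (difference 0.40, exact permutation p = 0.1). Cdh5 also did not overlap, though HS replicate 2 (2.10) and NS replicate 3 (2.09) were nearly equal (difference 0.21, exact permutation p = 0.1).

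The other 7 genes overlapped between the groups on this scale. Erg (-0.01), Vwf (-0.04) and Cldn5 (0.04) had differences near 0. Sox18 had the lowest difference (-0.66, exact permutation p = 0.2), with a mean ratio of -1.48 ± 0.30 in HS and -0.82 ± 0.41 in NS (SD, n = 3). Among the HS libraries the SD of the ratio ran from 0.04 for Pecam1 to 0.30 for Sox18, with Esam at 0.79. HS replicate 2, lowest of the HS libraries in CPM for all of the genes but Esam, had the highest HS ratio for Emcn, Esam, Vwf, Erg and Sox18.

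**Figure D3:**
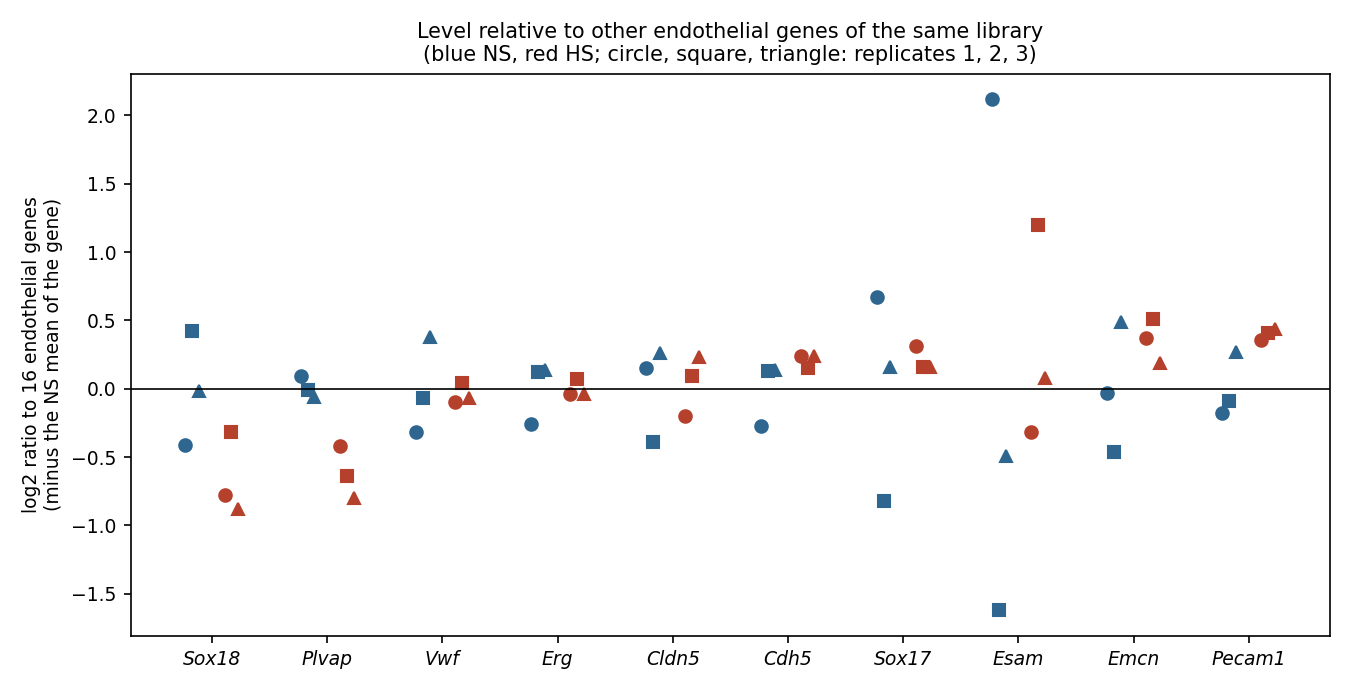
Log2 ratio of each gene to the mean of 16 other endothelial genes in the same library, with the NS mean of the gene set to 0; blue points are NS and red points HS libraries, and circle, square and triangle are replicates 1, 2 and 3. The red points of Plvap lie below all its blue points and those of Pecam1 above, while Esam scatters over the whole range.

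The lists of vascular genes were chosen with earlier results of these data known. Over 9 of them, without the 10 genes themselves, 36 of 91 tested genes rose and 4 fell, beside 6.33% and 2.51% of all genes. The median log2 fold change of the 91 was 0.71. The 40 genes called became 62 when HS replicate 2 was left out, 6 when HS replicate 3 was, and 1, 0 and 0 when NS replicates 1, 2 and 3 were. Among 15 endothelial transcription factors, 6 rose and 1 fell (median log2 fold change 0.95). Ets1, an ETS factor, rose 1.93-fold (edgeR adjusted p = 0.00766), Bcl6b, a repressor enriched in endothelium, 3.48-fold (adjusted p = 0.01049), and Fli1, the ETS factor closest to Erg, 2.09-fold (adjusted p = 0.01663). Sox7, the remaining SOX factor of the F group, was not called (log2 fold change -0.09, adjusted p = 0.8019). The ETS factor Elk3 rose 4.97-fold (adjusted p = 0.02388), and the ETS factor Ets2 was not called (log2 fold change -0.1, adjusted p = 0.5359). Klf4 was the gene that fell (log2 fold change -0.48, edgeR adjusted p = 0.02729). Of the 15, 12 had positive values. Elk3, Ets2 and Klf4 were named after their values were seen.

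Lists of vessel types also held risen genes. Of 11 artery genes 3 rose and 1 fell (median 0.66), the risen ones including Fbln5 (1.71-fold), an elastic fibre protein, and Gja5 (3.04-fold), the arterial connexin 40. Of the 11, 8 had positive values. Unc5b fell (log2 fold change -0.47, edgeR adjusted p = 0.0213), and Notch1 (-0.45) and Efnb2 (-0.12) were not called. Unc5b, Notch1 and Efnb2 were named after their values were seen. Of 6 vein and venule genes 2 rose (median 0.91), the leukocyte adhesion molecules Vcam1 (3.75-fold) and Selp (2.62-fold). Among the 4 not called, Ephb4 (log2 fold change 0.09) and Nrp2 (0.16), named after their values were seen, had the lowest values. Of 6 capillary genes 1 rose (median 0.54), the water channel Aqp1 (1.82-fold), while Car4, a carbonic anhydrase of capillaries, had a log2 fold change of 1.21 (adjusted p = 0.06534). Of 9 tip cell and sprouting genes 5 rose (median 1.39) and 8 had positive values. Those with the smallest p were Angpt2 (4.67-fold), which loosens vessels for sprouting, and Aplnr (2.85-fold), the apelin receptor. Adm, named after its value was seen, had the lowest value (log2 fold change -0.54) and was not called. Of 5 caveolae genes 3 rose (median 0.46), among them Cav1 (1.68-fold), the coat protein, and Sdpr (the present Cavin2, 1.51-fold).

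The other junction genes, many of them shared with epithelium, had medians below 0. Of 12 junction partners 3 rose and 1 fell (median -0.21), and 4 of the 12 had positive values. Jup fell (log2 fold change -0.39, edgeR adjusted p = 0.04683), and Ctnnb1 (-0.16) and Ctnnd1 (-0.08) were not called. Jup, Ctnnb1 and Ctnnd1 were named after their values were seen. Ptprb, the phosphatase VE-PTP that binds VE-cadherin, rose 1.98-fold (edgeR adjusted p = 0.01799) and Jam2, an adhesion molecule related to Esam, 1.57-fold (adjusted p = 0.03104). Of 11 other claudins 2 rose and 1 fell (median -0.29). Cldn2, a pore-forming claudin, rose 6.78-fold, to 1.59 ± 0.271 CPM in HS against 0.227 ± 0.114 in NS (SD, n = 3 each, edgeR adjusted p = 0.02744), and Cldn4, an epithelial claudin, fell (log2 fold change -0.56, adjusted p = 0.0302).

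**Figure D4:**
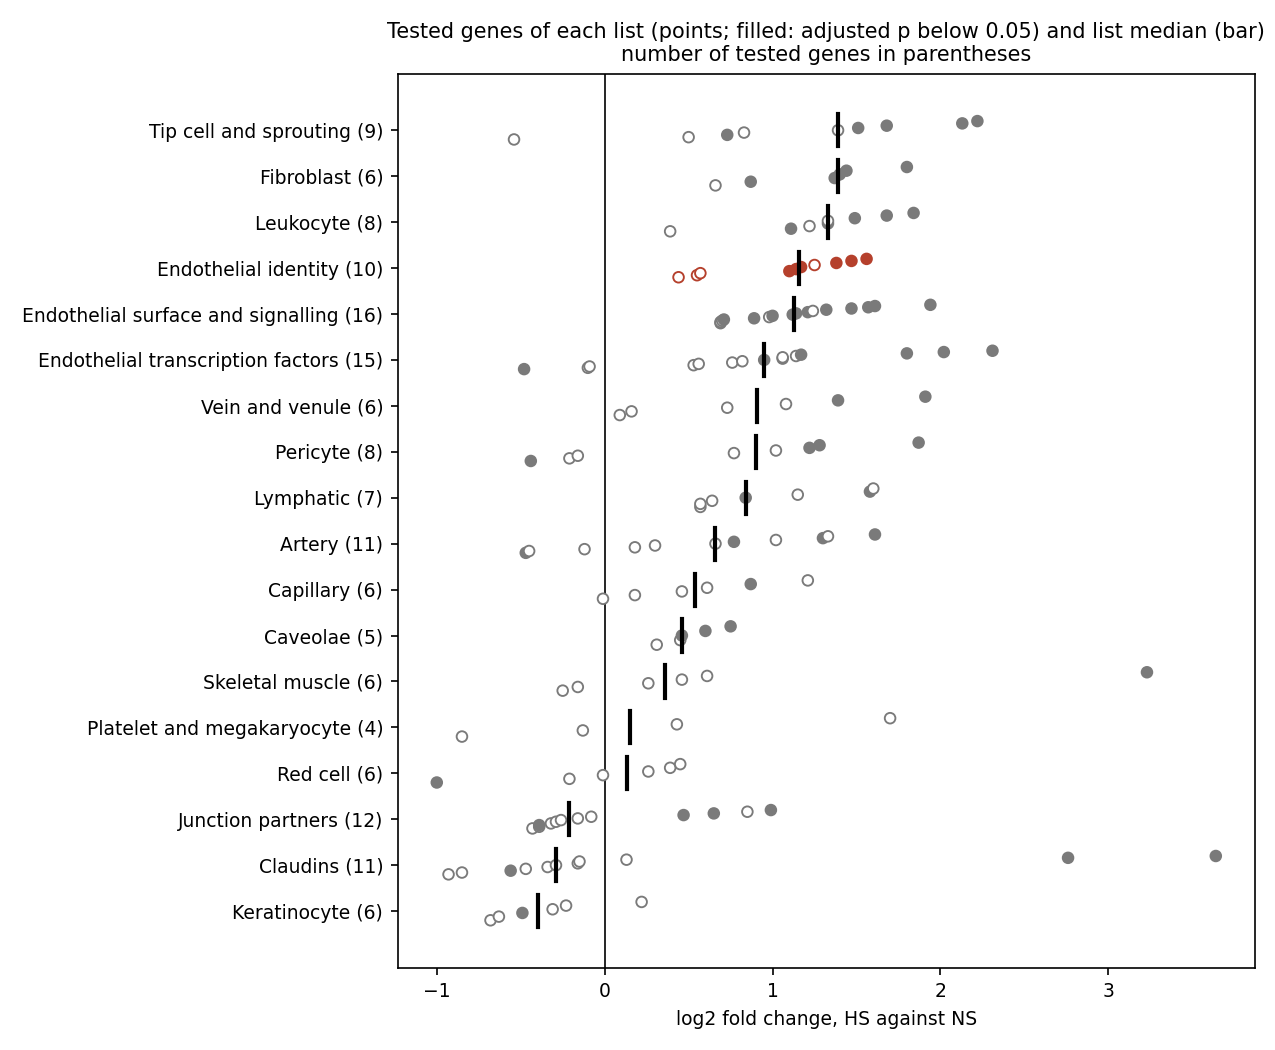
Log2 fold change of HS against NS for the tested genes of each list (points, filled where the adjusted p was below 0.05) with the list median as a bar. The endothelial identity genes (red, median 1.16) lie close to the list of endothelial surface and signalling genes (median 1.13), while the medians of junction partners, claudins and keratinocyte genes are below 0.

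Markers of several other cell types also differed between the groups, those of leukocytes and fibroblasts in most of their genes. Since leukocytes carry Pecam1, the summed level of 8 leukocyte markers is given here: 748, 299 and 518 CPM in HS and 169 to 191 CPM in NS, with 5 of 8 higher and none lower (median 1.33), including Lcp1 (3.21-fold), an actin bundler of leukocytes, and Cd52 (2.81-fold), a leukocyte surface peptide. Of 8 platelet and megakaryocyte markers in the table, 4 could be tested and none was called by edgeR (median 0.15, smallest adjusted p 0.09674 for Gp1bb), with 2 at an unadjusted p below 0.05; DESeq2 called 1 lower and limma-voom none, with 1 such p. Their summed level was 81.8, 20.1 and 33.4 CPM in HS and 21.9 to 23.2 CPM in NS. Pf4, a platelet chemokine, gave 63.5, 11.7 and 21.7 CPM of it in HS and 7.04, 10.2 and 12.7 CPM in NS, and was not called (log2 fold change 1.70, edgeR adjusted p = 0.1436). In HS replicate 2 the summed platelet markers (20.1 CPM) were below every NS library, but Pf4 (11.7 CPM) was below NS replicate 3 only. The part of leukocytes and platelets in the results for Pecam1 and Vwf was not tested.

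Of 7 lymphatic markers 2 rose (median 0.84), Pdpn (2.99-fold), which fibroblasts and keratinocytes also express, and Mmrn1 (1.79-fold), while Prox1, the factor that defines lymphatic endothelium, was not called (log2 fold change 1.60, adjusted p = 0.08409; named after its value was seen). Their summed level was 152 to 209 CPM in HS and 70.2 to 101 CPM in NS. Of 8 pericyte markers 3 rose and 1 fell (median 0.90), with Rgs5 2.42-fold and Kcnj8 3.66-fold higher. Of the 8, 5 had positive values. Cspg4 fell (log2 fold change -0.44, edgeR adjusted p = 0.04041), and Notch3 (-0.16) and Des (-0.21) were not called. Cspg4, Notch3 and Des were named after their values were seen. Of 6 fibroblast markers 5 rose (median 1.39), among them the proteoglycan Lum (3.47-fold) and the collagen chain Col1a2 (2.70-fold). Of 6 keratinocyte markers 1 fell, the basal keratin Krt5 (median of the list -0.40), while Krt10, a keratin of the upper layers, was not called (log2 fold change -0.63). Of 6 red cell markers 1 fell, the anion exchanger Slc4a1 (median 0.13), while the beta globin Hbb-bt was not called (log2 fold change 0.45). Of 6 skeletal muscle markers 1 rose, the fast myosin Myh4 (9.36-fold; median of the list 0.36), while the muscle creatine kinase Ckm was not called (log2 fold change 0.61). The summed keratinocyte level was 16972 to 27195 CPM in HS and 25018 to 33703 CPM in NS. How far the mix of cells in the samples sets the levels of the endothelial genes was not tested.

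The 8 genes whose pattern over the 6 libraries was most like the mean pattern of the 10 genes were sought among 11537 tested genes with a mean of at least 5 CPM. Likeness was the root mean square difference between centred log2 CPM profiles, whose median over these genes was 0.646. The mean pattern weighted the 10 genes equally, including Esam with its 23, 1 and 3 counts in NS. It stood at -0.3, -0.83 and -0.59 in NS replicates 1, 2 and 3. Among the 10 genes, only Esam, Cldn5 and Sox17 had this order of the NS libraries. NS replicate 1 was the highest NS library for 4 of the 10 genes and the lowest for 4. Esam spread 20.9-fold between the NS libraries, and Sox17, the next widest, 3.02-fold. Esam thus moved the NS part of the mean pattern most, and that part was not common to the 10 genes. Which genes would be chosen without Esam was not tested. Adcy4, an adenylyl cyclase, came first (0.0739), followed by the hyaluronan synthase Has2 (0.0830), 2610305D13Rik (0.0912) and Nr2f2 (0.0976), the factor COUP-TFII of venous endothelium. Gpx8 (0.106), A630001G21Rik (0.111), Morc4 (0.117) and Rasgrp3 (0.119) completed them. Of the 10 genes, Cldn5 lay nearest to their common mean (0.148), with Sox18 (0.514) and Esam (1.09) the farthest from it.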

How the data were processed

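Raw gene counts of the 6 libraries were taken from the deposited table, per the file headers. A second set of values in it, normalized by the authors with edgeR, was not used. Per the labels' protocols, RNA depleted of ribosomal RNA was read as paired ends. The submitters' processing notes name build mm10 and, as tools, edgeR, HTSeq 0.9.1, HISAT2 2.0.4 and cutadapt 1.9.3, without their settings.

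Groups came from the sample titles. The test on these counts was edgeR's (version 4.0.16, under R 4.3.3): filterByExpr (minimum count 10) kept 14513 of 17572 genes, TMM factors ran from 0.955 to 1.03, and a robust quasi-likelihood fit had the group as its only term. The SE of a log2 fold change was its absolute value divided by the square root of the F statistic of the quasi-likelihood test. CPM used the TMM-scaled totals. Log2 ratios used a prior count of 0.5. The procedure was tested on simulated counts, in which 200 genes were changed. It recovered 26.9% of the 1.5-fold, 59.7% of the 2-fold and 92.4% of the 4-fold changes. Of its 128 calls there, 9 were false. Alternatives were other scalings and filters, a replicate block, each library left out, DESeq2 1.42.0, limma-voom (limma 3.58.1) and no robust step.

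No pair of libraries within a group agreed within sampling noise (chi-square per gene 14.2 to 107), so no 2 of them hold the same library; this says nothing about animals. Each library was a replicate because it has its own entry in the labels. Coordinates and exon lengths are GENCODE's for the same build, 1-based; exon lengths join all annotated transcripts. The 10 members and 17 further lists (149 entries, 146 of them in the table, 3 under older symbols) were chosen with earlier results of these data known. Named were all members and the 8 genes most like the members' mean pattern. From each list, the 2 called genes with the smallest p were named, or, with fewer than 2 called, the 2 smallest p. Paralogues of members could be named too. Genes named after their values were seen are marked as such. Motif searches covered promoter windows of RefSeq's table.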

Additional observations from a re-analysis of the deposited data

How the results depend on the processing

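The fitted differences of all tested members were positive in each of the 14 alternatives, and their median log2 fold change stayed between 1.02 and 1.34. The count of members called was 6 or 7 under every alternative of scaling, filter, tool or block, and 0 to 8 with a library left out. Without NS replicates 1, 2 and 3 none was called by edgeR, though 8, 8 and 6 members had an unadjusted p below 0.05 and the smallest adjusted p was 0.0518, 0.063 and 0.0552; DESeq2 and limma-voom were not run on those sets. Without HS replicate 3, only Pecam1 kept its call (adjusted p = 0.031). Calls over all genes numbered 1284, 2435 with DESeq2, and 25 to 3257 with a library left out; scaled by library totals alone, 930 were higher and 585 lower, against 919 and 365 with TMM. Called genes of the 9 vascular lists numbered 40, and 0 to 62 with a library left out (none without NS replicates 2 and 3, where 56 and 58 had an unadjusted p below 0.05). The median member difference relative to other endothelial genes was 0.12, and -0.12 to 0.16 with a library left out, negative without HS replicate 2 (-0.02) or NS replicate 2. The cause of these shifts was not tested. Esam was removed by the filter of at least 1 CPM in 3 libraries, so that it gave no value there.

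Libraries with the same replicate number deviated from their group means with correlations over genes of 0.0187, 0.0156 and 0.0384, under the 0.1 taken as pairing, so the samples share only a number; each library still correlated best with its own number. With the replicate block 7 members were called, Sox17 being added (adjusted p = 0.0343), among 1001 genes in all.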
